A study of Homo sapiens with 24 samples.

Results

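The replication-dependent histone genes were followed across 24 RNA-seq libraries of the breast cancer line T47D. A gene was counted as a member when its entry in the deposited table held a single symbol of the HIST1, HIST2, HIST3 or HIST4 clusters (H1, H2A, H2B, H3 or H4) and reached 10 scaled fragments in at least 3 libraries. Of 55 such symbols 47 passed, out of 25516 entries in the table. By symbol they were 5 H1, 11 H2A, 13 H2B, 9 H3 and 9 H4 genes, and pseudogenes were not taken out. The HIST1 cluster on chromosome 6 held 38 of them, HIST2 and HIST3 on chromosome 1 held 5 and 3, and HIST4H4 lies on chromosome 12. The design crossed line (T47D-co, which is PR-positive, and T47D-Y, which is PR null), ligand (10 nM of the progestin R5020, or its EtOH vehicle, for 6 h) and interferon (IFN-alpha at 20 IU/ml, or water, for 18 h before the ligand). Each of the 8 groups held 3 libraries, called biologic replicates by the submitters. The groups were T47D-co with R5020 and IFN, with R5020 and water, with EtOH and IFN, and with EtOH and water, then the same 4 treatments of T47D-Y. All cells were grown in medium with serum and insulin, and each line is a variant of the same parental line, so the receptor and any other difference between the variants cannot be told apart.

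Replication-dependent histone genes supply the core histones and linker histone H1 that package newly made DNA, and in dividing cells their mRNAs are abundant mainly during S phase. Their mRNAs have no introns and usually no poly(A) tail. They end in a conserved stem-loop that the stem-loop binding protein SLBP holds, and cleavage just after it needs the U7 snRNP. Transcription is linked to S phase entry by cyclin E with CDK2 acting through NPAT, and promoters of each histone class share their own elements. In RNA from whole cultures, fewer cells in S phase and less histone RNA per cell cannot be told apart.

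The stem-loop was searched in the GENCODE v29 transcripts (GRCh38) of all 47 members, since it marks the 3' end on which these mRNAs depend. Its 16-base consensus was found in a transcript of 21 members, in 5 spellings. It was not found in the annotated transcripts of the other 26. Only this consensus and these transcripts were searched, so a miss does not show that a gene lacks the stem-loop. The lines that follow give a histone 3' end for 5 members whose values are described below, with 5 bases of transcript on each side and the stem-loop in capitals. HIST1H2AC and HIST3H2A carry the spelling shared by 11 members, HIST1H4H that of 5 H4 genes, HIST1H2BC that of 3 members, and HIST1H3E a spelling of its own.
HIST1H2AC: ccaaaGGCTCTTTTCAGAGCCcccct
HIST3H2A: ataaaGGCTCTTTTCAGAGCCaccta
HIST1H4H: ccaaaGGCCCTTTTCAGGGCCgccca
HIST1H2BC: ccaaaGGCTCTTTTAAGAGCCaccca
HIST1H3E: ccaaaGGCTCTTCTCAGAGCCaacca
These lie at chr6:26124664-26124689 (+ strand), chr1:228457364-228457389 (- strand), chr6:26285126-26285151 (- strand), chr6:26123467-26123492 (- strand) and chr6:26225591-26225616 (+ strand) in GRCh38. In 15 of the 21 members at least 1 annotated transcript ran on more than 100 bases past the stem-loop, the form that can gain a poly(A) tail; it ran on by 1128 bases in HIST1H2AC.

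Promoters were compared by class because promoters of each histone class share their own elements. Whether these elements bear on the changes described below was not tested. RefSeq promoters (GRCh38.p14) matched 38 members, and the 250 bases before the start were searched on both strands. TATAAA was found in 27 of the 38 and in 11.1% of all 27305 promoters; CCAAT in 31 and in 33.0%; the octamer ATTTGCAT in 13 and in 1.66%; and AAACACA, the H1 box, in 4 and in 4.95%. By class, AAACACA was in 4 of 4 H1 promoters and in no other member, ATTTGCAT in 7 of 10 H2A and 6 of 9 H2B promoters and in no H1, H3 or H4 promoter, and CCAAT in all H1, H2A, H2B and H3 promoters and in 0 of 7 H4 promoters. The interferon-type motif GAAANNGAAA was in 2 members, both H3, and in 3.07% of all promoters; ACANNNTGT, of the kind that steroid receptors bind, was in 1 H3 member and in 4.68%. A match of letters is not a bound site. Below are the promoters of HIST1H1D and HIST1H1E, linker histone genes that moved in opposite directions with R5020 in T47D-co with water. They are followed by HIST1H2BB, which was near absent in T47D-co, and by the H4 gene HIST1H4D. HIST1H4D was called lower with IFN in T47D-co with EtOH and with R5020 and in T47D-Y with R5020, but not in T47D-Y with EtOH. Capitals mark all matches to the motifs named here.
HIST1H1D: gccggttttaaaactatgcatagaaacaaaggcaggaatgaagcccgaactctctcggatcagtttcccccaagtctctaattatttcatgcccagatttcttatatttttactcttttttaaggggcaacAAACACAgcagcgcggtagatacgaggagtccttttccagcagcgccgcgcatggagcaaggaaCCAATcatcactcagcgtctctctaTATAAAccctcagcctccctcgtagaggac
HIST1H1E: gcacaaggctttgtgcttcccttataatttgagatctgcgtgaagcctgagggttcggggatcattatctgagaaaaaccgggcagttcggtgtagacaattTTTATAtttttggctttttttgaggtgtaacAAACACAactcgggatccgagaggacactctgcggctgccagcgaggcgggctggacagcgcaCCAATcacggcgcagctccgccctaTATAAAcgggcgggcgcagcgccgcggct
HIST1H2BB: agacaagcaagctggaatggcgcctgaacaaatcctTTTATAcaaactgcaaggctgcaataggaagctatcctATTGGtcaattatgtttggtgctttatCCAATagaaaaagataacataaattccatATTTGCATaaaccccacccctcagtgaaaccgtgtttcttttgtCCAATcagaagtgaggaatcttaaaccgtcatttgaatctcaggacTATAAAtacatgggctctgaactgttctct
HIST1H4D: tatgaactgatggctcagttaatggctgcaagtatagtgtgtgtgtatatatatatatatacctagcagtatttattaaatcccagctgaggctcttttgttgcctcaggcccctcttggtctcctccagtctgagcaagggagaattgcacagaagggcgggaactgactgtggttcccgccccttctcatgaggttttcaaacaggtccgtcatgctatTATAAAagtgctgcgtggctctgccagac
Their positions are chr6:26234988-26235237 (- strand), chr6:26156079-26156328 (+ strand), chr6:26043714-26043963 (- strand) and chr6:26189113-26189362 (- strand).

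The libraries held 14137614 to 33602085 estimated fragments (median 18381461). PGR, the progesterone receptor gene, had 11805 to 27957 scaled fragments in T47D-co libraries, against 418 to 719 in T47D-Y libraries, where it was low but not absent. ZBTB16, a progestin target, had 6187 to 7427 with R5020 against 3.56 to 12.1 with EtOH in T47D-co, and 21.9 to 38.4 with R5020 against 1.32 to 7.21 with EtOH in T47D-Y. IFI6, an interferon target, had 2376 to 3521 with IFN against 179.5 to 301 with water in T47D-co, and 3434 to 3783 with IFN against 76.2 to 103 with water in T47D-Y. The 8 luminal breast markers summed to 58589.8 to 100515 scaled fragments, but TFF1, one of them, was near absent, at 0 to 5.77 in T47D-co and 1.65 to 11.8 in T47D-Y. Of 5 leukocyte markers 4 had an entry of their own and summed to 9.35 to 77.3, 1 of 4 endothelial markers had 0 to 7.44, 1 of 6 fibroblast markers 154 to 473, and 3 of 4 basal or myoepithelial markers summed to 383 to 630.3. Mitochondrial RNA made up 0.942 to 1.08% of fragments in 4 libraries (T47D-Y EtOH water replicate 1, T47D-Y R5020 water replicates 1 and 2, and T47D-co EtOH water replicate 2) and 3.17 to 4.75% in the other 20.

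Together the 47 members took 0.179 to 0.27% of all fragments, 36699.9 to 50415 scaled fragments per library. Levels between genes were compared per kilobase of locus, for the 37 members whose locus in the table is shorter than 1000 bases. In T47D-co with EtOH and water, the linker histone gene HIST1H1C had the highest mean, 5912 scaled fragments per kb, followed by the H3 gene HIST1H3B at 5538, and the linker histone genes HIST1H1B at 4824 and HIST1H1E at 4565. At the low end were HIST1H2BB with 8.22, HIST3H3, a testis histone gene, with 17.0, HIST2H2BC with 18.5 and HIST1H1PS1, an H1 pseudogene, with 22.8 scaled fragments per kb. These 4 were also the only members under 10 scaled fragments in any library; HIST1H1PS1 reached 10 in 8 libraries, HIST3H3 in 9, HIST1H2BB in 12 and HIST2H2BC in 19. Of the 8 symbols left out, HIST1H2BA came closest, at 9.91 scaled fragments in its highest library, and HIST1H4I was listed at 0 in all libraries, at a locus it shares with HIST1H2BK. Of the 5 entries that merge a histone symbol with another symbol, none was counted.

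The largest differences among the histone genes were between the lines. In T47D-co against T47D-Y, both with EtOH and water, 9 members were higher and 13 lower, beside 29.7% of all entries called higher and 33.4% called lower (limma on log2(scaled fragments + 1), Benjamini-Hochberg adjusted p under 0.05, as in all calls below). With EtOH and IFN, 7 members were higher and 16 lower, beside 29.6% and 33.1% of all entries. The members' shares were 19.1% higher and 27.7% lower with water, and 14.9% and 34% with IFN, so histone genes were called no more often than entries at large by more than 1 percentage point in either direction. One of the members called lower in both, HIST1H2BB, passed the minimum only through T47D-Y, so its call is no support. The split rested in part on single libraries: with water it was 3 higher and 14 lower without T47D-co EtOH water replicate 3, and with IFN 11 higher and 10 lower without T47D-Y EtOH IFN replicate 2. Of the calls, 6 higher and 12 lower members were shared by both comparisons. The median change of the 47 members was -0.027 with water and -0.17 with IFN on the log2 scale, beside -0.035 and -0.028 for all entries tested. On the deposited scale the calls were 3 higher and 30 lower with water, where the median of all entries was -0.268, and 10 higher and 12 lower with IFN.

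HIST1H2BB, an H2B gene, had 5.77, 1.43 and 3.46 scaled fragments in the 3 T47D-co EtOH water libraries and 85.1, 116 and 106 in the T47D-Y ones. With EtOH and IFN it had 4.41, 0.908 and 5.93 in T47D-co and 117, 149 and 134 in T47D-Y. It was near absent in all 12 T47D-co libraries, at 0 to 6.5, and measured in all 12 T47D-Y libraries, at 85.1 to 149, whatever the treatment. It reached the minimum of 10 in the 12 T47D-Y libraries alone, so a gene that passed this way had to differ, and its values are given as a description with no test. The H3 gene HIST1H3A had 132, 131 and 159 scaled fragments in T47D-co and 470.1, 527 and 442 in T47D-Y with EtOH and water (log2 fold change -1.76 ± 0.12, adjusted p = 3.52e-12), and its 12 T47D-co libraries, at 95.5 to 182, lay below its 12 T47D-Y libraries, at 429 to 597. HIST1H3C, another H3 gene, had 231, 206 and 275 in T47D-co and 519, 565 and 526 in T47D-Y (log2 fold change -1.18 ± 0.15, adjusted p = 1.05e-07), again with no overlap.

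These 3 genes lie close together at one end of the HIST1 cluster. The 7 members from HIST1H3A to HIST1H3C span chr6:26020717-26046097 in hg19, the table's coordinates, and 6 of them, HIST1H2BB included, were lower in T47D-co with EtOH and water, with a median log2 change of -0.59, beside 7 of the other 40 members, with a median of -0.016. With EtOH and IFN, 5 of the 7 were lower (median -0.66), beside 11 of the other 40 (median -0.14). HIST1H2BB is in both counts and both medians of the stretch, and its call is no support, as given above. Of all entries 33.4% were called lower with water and 33.1% with IFN. The exception in the stretch was HIST1H3B, which was higher in T47D-co both with water (0.28, adjusted p = 0.012) and with IFN (0.37, adjusted p = 0.00138), although the first call did not hold without T47D-co EtOH water replicate 3. This stretch was picked after its values were seen, so it gets no test. On chromosome 1 the neighbouring genes HIST3H2A and HIST3H2BB, at chr1:228645064-228645560 and chr1:228645807-228646259, were both lower in T47D-co. HIST3H2A had 103, 89.2 and 115 scaled fragments in T47D-co and 209, 194 and 212 in T47D-Y with EtOH and water (log2 fold change -0.998 ± 0.11, adjusted p = 1.89e-08), and HIST3H2BB had 213, 198 and 245 in T47D-co and 329.7, 348 and 302 in T47D-Y (log2 fold change -0.58 ± 0.11, adjusted p = 6.59e-05).

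**Figure D1:**
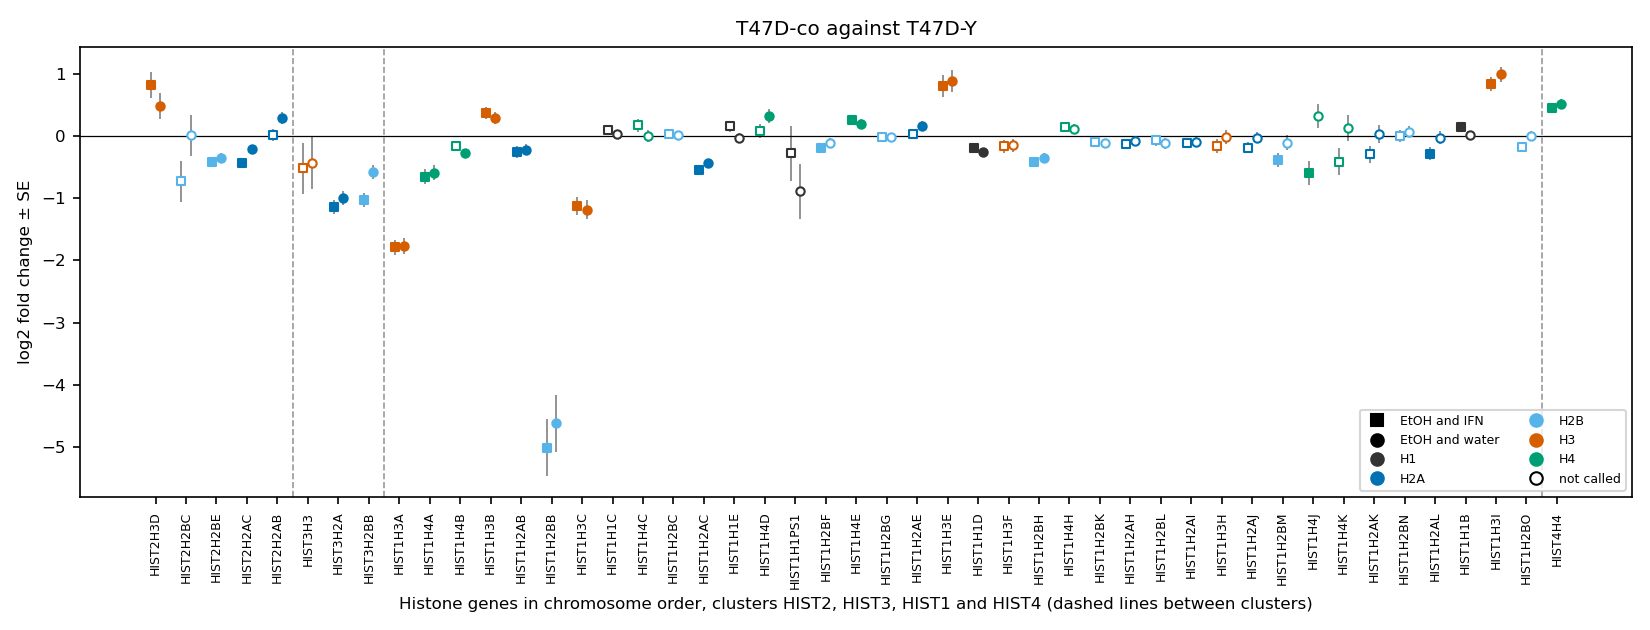
Change of each of the 47 histone genes in T47D-co against T47D-Y (y axis: log2 fold change with its SE; x axis: genes in chromosome order; squares, EtOH and IFN; circles, EtOH and water; filled, called; colours, histone class). HIST1H2BB, which passed the minimum only through T47D-Y, stands at -5.01 and -4.62, and its neighbours HIST1H3A and HIST1H3C also lie below -1.

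Of the H3 genes of the HIST1 cluster, HIST1H3I and HIST1H3E were higher in T47D-co, as was HIST1H3B, given above. HIST1H3I had 368, 336 and 415 scaled fragments in T47D-co and 186, 179.6 and 196 in T47D-Y with EtOH and water (log2 fold change 0.99 ± 0.11, adjusted p = 2.79e-08). HIST1H3E had 85.7, 74.2 and 95.6 in T47D-co and 48.8, 45.2 and 42.5 in T47D-Y (log2 fold change 0.89 ± 0.18, adjusted p = 0.000103). It is among the less abundant members. With EtOH and water, 4 of 9 H3 genes were called higher and 2 lower. Of 13 H2B genes 4 were lower and none was higher. HIST1H2BB is among these 4, and its call is no support, as given above. Beside these counts, 29.7% of all entries were called higher and 33.4% lower. HIST4H4 was higher by 0.52 with water and 0.45 with IFN. The other lists stand beside the same shares of all entries. With EtOH and water, 12 of 18 genes of the G2/M list were lower and 3 higher. Of 26 DNA replication and G1/S genes 10 were higher and 10 lower. Of 21 genes of histone mRNA transcription and 3' end processing 9 were higher and 7 lower, of 18 chaperone and deposition genes 6 and 5, and of 12 replication-independent variants 6 and 2. The lines were also scaled in separate blocks in the deposited table; the common scaling used here is described with the processing.

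**Figure D2:**
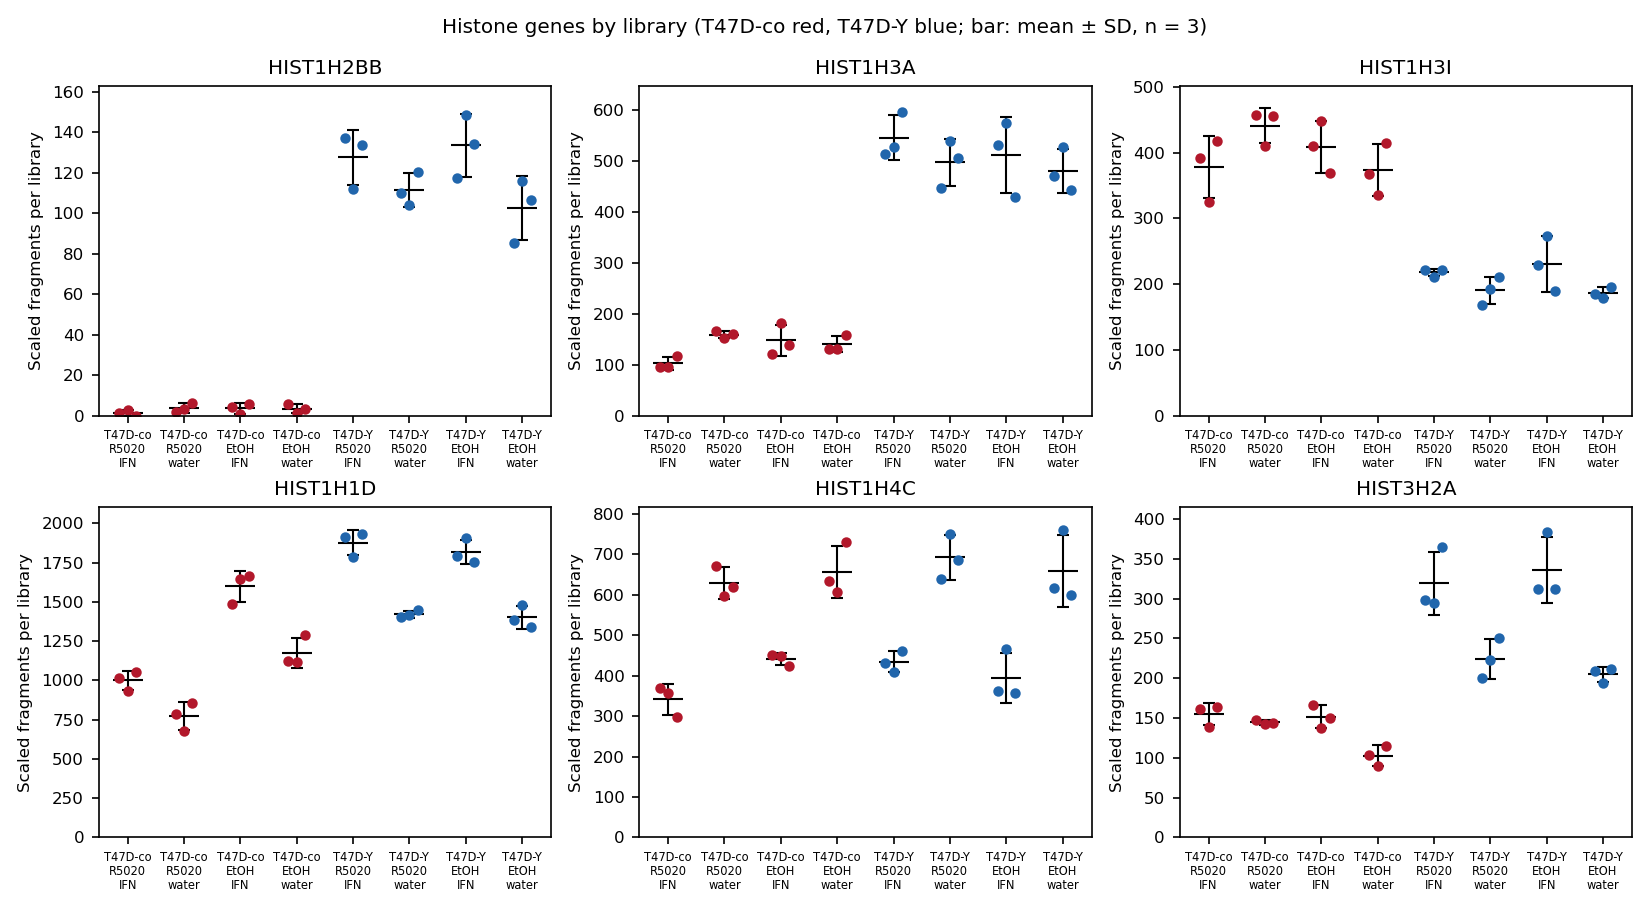
Scaled fragments of 6 histone genes in each of the 24 libraries (x axis: group; points: libraries, red for T47D-co and blue for T47D-Y; bars: mean ± SD, n = 3). HIST1H2BB and HIST1H3A are low and HIST1H3I is high in all T47D-co libraries, HIST1H1D is lowest in T47D-co with R5020, and HIST1H4C is lower with IFN than with water in both lines.

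In T47D-co with water, R5020 was followed by no called change in 34 of the 47 histone genes, and those that changed mostly rose, by at most 0.50 on the log2 scale. Of the 47 members 12 rose and 1 fell, which are shares of 25.5% and 2.13%. Of all entries 26.6% were called higher and 30.0% lower. The share of members that rose was thus close to that of all entries, and the share that fell was far below it. The median change was 0.13 for the members and -0.037 for all entries. Left out in turn, T47D-co EtOH water replicate 2, the library with the lowest histone sum of its group and one of the 4 of low mitochondrial share, took the count to 8 called (7 higher and 1 lower), against 13 with all libraries. By total-fragment scaling 7 rose and 1 fell, and the members' median was 0.029.

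The H2A gene HIST3H2A had 147, 142 and 144 scaled fragments with R5020 and 103, 89.2 and 115 with EtOH (log2 fold change 0.50 ± 0.11, adjusted p = 0.000437). HIST1H2BO, an H2B gene, had 1119, 1049 and 1098 with R5020 and 778, 769 and 899.8 with EtOH (log2 fold change 0.42 ± 0.075, adjusted p = 3.35e-05). For neither gene did the groups overlap. HIST1H2AL rose by 0.42, HIST1H2BN by 0.37 and HIST2H2AC by 0.31, while calls for HIST1H2BM (0.30) and HIST1H2AB (0.26) did not hold without T47D-co EtOH water replicate 2 or without some other libraries. By class, 4 of 11 H2A, 5 of 13 H2B, 2 of 5 H1 and 1 of 9 H4 genes rose, and 0 of 9 H3 genes were called. Beside these small classes, 26.6% of all entries were called higher and 30.0% lower, and a difference between classes was not tested.

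Linker histones split. HIST1H1D, which encodes the linker histone H1.3, had 786, 677 and 855 scaled fragments with R5020 and 1125, 1118 and 1287 with EtOH (log2 fold change -0.61 ± 0.068, adjusted p = 2.64e-08). HIST1H1E, which encodes H1.4, had 4928, 4287 and 4587 with R5020 and 3473, 3360.5 and 3931 with EtOH (log2 fold change 0.36 ± 0.082, adjusted p = 0.00052). Neither pair of groups overlapped. HIST1H1C, which encodes H1.2, had a change of 0.052 that was not called. Their promoters, shown above for HIST1H1D and HIST1H1E, both hold the H1 box, a CCAAT box and a TATA box.

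With IFN present, R5020 was followed by no called change in 30 of the 47 histone genes of T47D-co, and those that changed mostly fell. Of the 47 members 1 rose and 16 fell, which are shares of 2.13% and 34%. Of all entries 27.5% were called higher and 30.6% lower. The share of members that fell was thus close to that of all entries, and the share that rose was far below it. The median change was -0.18 for the members and -0.046 for all entries. HIST1H1D again fell, with 1014, 934 and 1052 scaled fragments with R5020 and 1485, 1647 and 1662 with EtOH (log2 fold change -0.68 ± 0.068, adjusted p = 4.23e-09). The largest called fall was in HIST2H3D, an H3 gene at low level, with 49.1, 31.7 and 33.8 with R5020 and 65.1, 83.5 and 48.6 with EtOH (log2 fold change -0.76 ± 0.21, adjusted p = 0.00294); its groups overlapped by 1 library. HIST1H3C fell by 0.57, HIST1H3A by 0.51, HIST1H4A by 0.47 and HIST1H4C by 0.38, with no overlap between groups. HIST1H2BC (-0.28) and HIST1H2BL (-0.31) also fell, and the 8 members called lower beyond these had changes of -0.12 to -0.23. HIST1H2BO was the member that rose (0.19, adjusted p = 0.0329). Its call was lost when replicate 3 of the R5020 IFN group, or replicate 1 or 3 of the EtOH IFN group, was left out. By total-fragment scaling 0 members rose and 29 fell, with a median of all entries of -0.155 in this comparison.

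**Figure D3:**
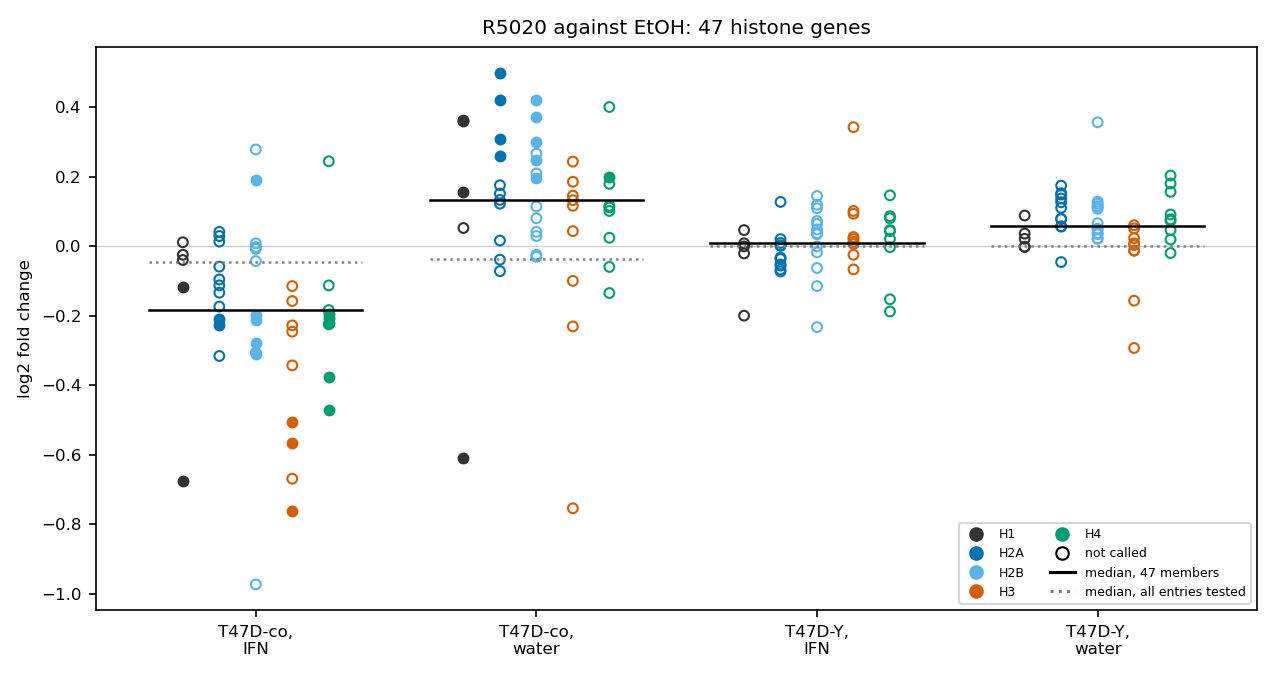
Change of the 47 histone genes with R5020 against EtOH (y axis: log2 fold change; x axis: line and interferon state; colours, histone class; filled points, called; black line, median of the members; dotted line, median of all entries tested). In T47D-co the members' median is -0.18 with IFN and 0.13 with water, HIST1H1D is called lower in both, and no member is called in T47D-Y.

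The difference between these responses was tested as the R5020 by IFN interaction in T47D-co. No member passed (limma, smallest adjusted p = 0.0543, for HIST1H3A at -0.69 ± 0.18), while 1.0% of all entries did. At an unadjusted p under 0.05 there were 30 of 47 members and 3102 of 20162 entries, and 45 of the 47 had a negative interaction, with a median of -0.29 beside 0.024 for all entries. With 1 library left out, the number called was 2 without T47D-co EtOH IFN replicate 3, 1 without replicate 1 of that group, replicate 1 or 3 of T47D-co R5020 IFN or replicate 3 of T47D-co EtOH water, and 0 otherwise. Of the members, 12 rose with R5020 in water and 16 fell with R5020 in IFN, and none did both. The member called lower in both was HIST1H1D and the one called higher in both was HIST1H2BO.

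Genes of S phase entry rose with R5020 in both interferon states. Of 26 DNA replication and G1/S genes, all 26 rose with R5020 in T47D-co with water and 25 with IFN, with medians of 0.56 and 0.50 on the log2 scale, and the same numbers rose without the 4 libraries of low mitochondrial share. E2F1, a G1/S transcription factor, rose by 1.35 with water and 1.39 with IFN, and MCM10, a replication initiation factor, by 1.29 and 1.31. Of 21 genes for histone mRNA transcription and 3' end processing, 14 rose and 2 fell both with IFN and with water. SLBP, which binds the stem-loop, had 2084, 2125 and 2076 scaled fragments with R5020 and 1062, 1082 and 1021 with EtOH, both with IFN (log2 fold change 0.99 ± 0.047, adjusted p = 1.31e-15). With water it had 1968, 1902 and 2054 with R5020 and 1113, 1025 and 1015 with EtOH (log2 fold change 0.91 ± 0.047, adjusted p = 7.8e-15). CCNE2, a cyclin E gene, rose by 1.18 with IFN and 1.19 with water. Of 18 histone chaperone and deposition genes, 13 rose and 2 fell with IFN and 14 rose and 2 fell with water; CHAF1A, a subunit of the assembly factor CAF-1, rose by 0.69 and 0.70. Among 12 replication-independent variants 5 rose and 4 fell with IFN, and 5 rose and 3 fell with water; H3F3B, an H3.3 gene, rose by 0.59 and 0.54. The G2/M list moved both ways, with 7 of 18 higher and 7 lower with IFN, and 5 higher and 7 lower with water. Beside all these list counts, 27.5% of all entries were called higher and 30.6% lower with IFN. With water the shares of all entries were 26.6% and 30.0%.

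In T47D-Y no histone gene was called for R5020, either with water or with IFN. At an unadjusted p under 0.05 there were 2 members with water and 0 with IFN. Of all entries 0.203% were called higher and 0.0149% lower with water, and 0.263% higher and 0.0347% lower with IFN, so few entries of any kind changed. HIST1H1D had 1404, 1414 and 1446 scaled fragments with R5020 and 1387, 1481 and 1338 with EtOH in T47D-Y with water (log2 fold change 0.021 ± 0.068, adjusted p = 1), with overlapping groups. The line by R5020 interaction with water, which tests that difference, called 4 of 47 members beside 44.6% of all entries. HIST1H1D responded more negatively in T47D-co (difference of the log2 fold changes -0.63 ± 0.097, adjusted p = 6.18e-06), a call that held in all alternatives. HIST1H2BO (0.38, adjusted p = 0.00462), HIST1H1E (0.32, adjusted p = 0.0248) and HIST2H2AC (0.23, adjusted p = 0.0439) responded more positively. The count was 8 without T47D-co EtOH water replicate 3, 2 without T47D-co R5020 water replicate 1, T47D-co EtOH water replicate 1 or 2, T47D-Y R5020 water replicate 1 or T47D-Y EtOH water replicate 2, and by total-fragment scaling 1 was positive and 1 negative. The R5020 by IFN interaction in T47D-Y called 0 of 47 members and 0.0% of all entries; at an unadjusted p under 0.05 it held 0 members and 696 entries.

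IFN was followed by lower levels of some H4 genes and higher levels of HIST1H1D in both lines. With EtOH in T47D-co 2 members rose and 3 fell, beside 0.57% and 0.432% of all entries. With EtOH in T47D-Y 8 rose and 3 fell, beside 2.53% and 1.93%. Among members called with EtOH, HIST1H1D and HIST3H2A rose and HIST1H4C and HIST1H4H fell in both lines. In T47D-co 1 rose and 1 fell when replicate 1 of its EtOH IFN group was left out, 2 rose and 1 fell without replicate 3 of that group or replicate 1 or 3 of its EtOH water group, and 1 rose and 4 fell without replicate 2 of the water group. The balance in T47D-Y rested on single libraries: 4 rose and 6 fell without T47D-Y EtOH IFN replicate 2, 11 rose and 1 fell without replicate 3 of that group, and 4 rose and 3 fell without T47D-Y EtOH water replicate 1. Without the 4 libraries of low mitochondrial share 5 rose and 3 fell in T47D-Y. For HIST3H2A the call in T47D-co was lost without T47D-co EtOH water replicate 2 or T47D-co EtOH IFN replicate 1. On the deposited scale 2 members rose and 15 fell in T47D-co, and 0 rose and 29 fell in T47D-Y, with medians of all entries of -0.182 and -0.474.

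HIST1H4C, an H4 gene, had 451, 449.5 and 424 scaled fragments with IFN and 633, 608 and 730.5 with water in T47D-co with EtOH (log2 fold change -0.57 ± 0.10, adjusted p = 0.00201). In T47D-Y with EtOH it had 362, 467 and 357 with IFN and 616, 761 and 599 with water (log2 fold change -0.74 ± 0.10, adjusted p = 2.51e-05). In neither line did the groups overlap, and with R5020 its change was -0.89 in T47D-co and -0.67 in T47D-Y, again called. The median over the 9 H4 genes was -0.29 and -0.48 in T47D-co with EtOH and with R5020, and -0.20 and -0.25 in T47D-Y. No H4 gene was called higher in any of the 4 comparisons, but not all of them moved down. Their changes ran from -0.57 to 0.11 and from -0.90 to -0.16 in T47D-co with EtOH and with R5020. In T47D-Y they ran from -0.74 to 0.65 and from -0.67 to 0.42. HIST1H4H, another H4 gene, had changes with EtOH of -0.30 (T47D-co) and -0.32 (T47D-Y); the T47D-co call was lost without any 1 library of the 2 groups other than T47D-co EtOH water replicate 2, and the T47D-Y call without T47D-Y EtOH IFN replicate 1 or 3 or T47D-Y EtOH water replicate 2. HIST1H3B, one of the most abundant H3 genes, had 1601, 1753 and 1461 with IFN and 2127, 2207 and 2106 with water in T47D-Y with EtOH (log2 fold change -0.42 ± 0.095, adjusted p = 0.00855), a call that did not hold without T47D-Y EtOH IFN replicate 3, and fell in both lines with R5020 (-0.64 in T47D-co and -0.46 in T47D-Y).

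HIST1H1D had 1485, 1647 and 1662 scaled fragments with IFN and 1125, 1118 and 1287 with water in T47D-co with EtOH (log2 fold change 0.44 ± 0.068, adjusted p = 0.00033). In T47D-Y with EtOH it had 1794, 1903 and 1755 with IFN and 1387, 1481 and 1338 with water (log2 fold change 0.37 ± 0.068, adjusted p = 0.00111). In R5020-treated cells its IFN change was 0.38 for T47D-co and 0.40 for T47D-Y. HIST1H1D was thus called for IFN in all 4 comparisons, and for R5020 in both T47D-co comparisons in the opposite direction. Its IFN call in T47D-Y with R5020 was lost without the 4 libraries of low mitochondrial share. The IFN and R5020 comparisons of T47D-co share libraries. HIST3H2A had 312, 384 and 312 with IFN and 209, 194 and 212 with water in T47D-Y with EtOH (log2 fold change 0.70 ± 0.11, adjusted p = 0.000188), and its neighbour HIST3H2BB rose there by 0.65. Among H2A and H2B genes of T47D-Y with EtOH, 4 of 11 and 3 of 13 rose and none fell, beside 2.53% of all entries called higher and 1.93% lower. H1F0, the replication-independent linker histone gene, had a called rise with EtOH in both lines (0.22 for T47D-co and 0.70 for T47D-Y). The rises of HIST1H1D, HIST1H2BM, HIST1H2AL, HIST1H2BO and HIST2H2AC in T47D-Y turn to small falls on the deposited scale.

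When R5020 was present, IFN was followed by lower levels of a large share of the histone genes in T47D-co. Of the 47 members 1 rose and 19 fell, beside 7.57% of all entries called higher and 3.69% called lower, with a median of -0.245 for the members and 0.020 for all entries. The number called was 15 to 19 with 1 library left out, and on the deposited scale 1 rose and 36 fell. HIST1H4D had 793, 735 and 769 scaled fragments with IFN and 1495, 1465 and 1338 with water, both with R5020 (log2 fold change -0.90 ± 0.11, adjusted p = 1.36e-05). HIST1H4A had 225, 246 and 279.6 with IFN and 426, 403 and 336 with water (log2 fold change -0.63 ± 0.12, adjusted p = 0.0013). HIST1H3A fell by 0.63, HIST1H4H by 0.54, HIST2H2AB by 0.50 and HIST1H2BC by 0.48. For each of these 6 the groups did not overlap; HIST2H2AB shares its locus with another entry, so its reads may not be its own. In all, 6 of 9 H4, 5 of 13 H2B, 4 of 11 H2A, 3 of 9 H3 and 1 of 5 H1 genes fell. In T47D-Y with R5020 9 members rose and 6 fell, beside 3.07% and 1.69% of all entries, with a median of 0.095. By total-fragment scaling the split there was 6 and 7, and on the deposited scale 0 and 31. All 6 members that fell there (HIST1H2BC, HIST1H3B, HIST1H4C, HIST1H4D, HIST1H4E and HIST1H4H) were also among the 19 of T47D-co. HIST1H2BM rose most in T47D-Y with R5020, with 339, 348 and 414 with IFN and 204, 259 and 274 with water (log2 fold change 0.58 ± 0.12, adjusted p = 0.00352). Without the 4 libraries of low mitochondrial share, 2 of which are T47D-Y R5020 water libraries, 0 members rose there and 2 fell, so no rise in T47D-Y with R5020 was called without them. The balance also turned with 1 library left out: 4 rose and 7 fell without T47D-Y R5020 water replicate 1, and 4 rose and 5 fell without T47D-Y R5020 IFN replicate 3. It was 6 and 2 without replicate 2 of that IFN group, and 7 and 2 without its replicate 1 or without replicate 2 or 3 of T47D-Y R5020 water.

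**Figure D4:**
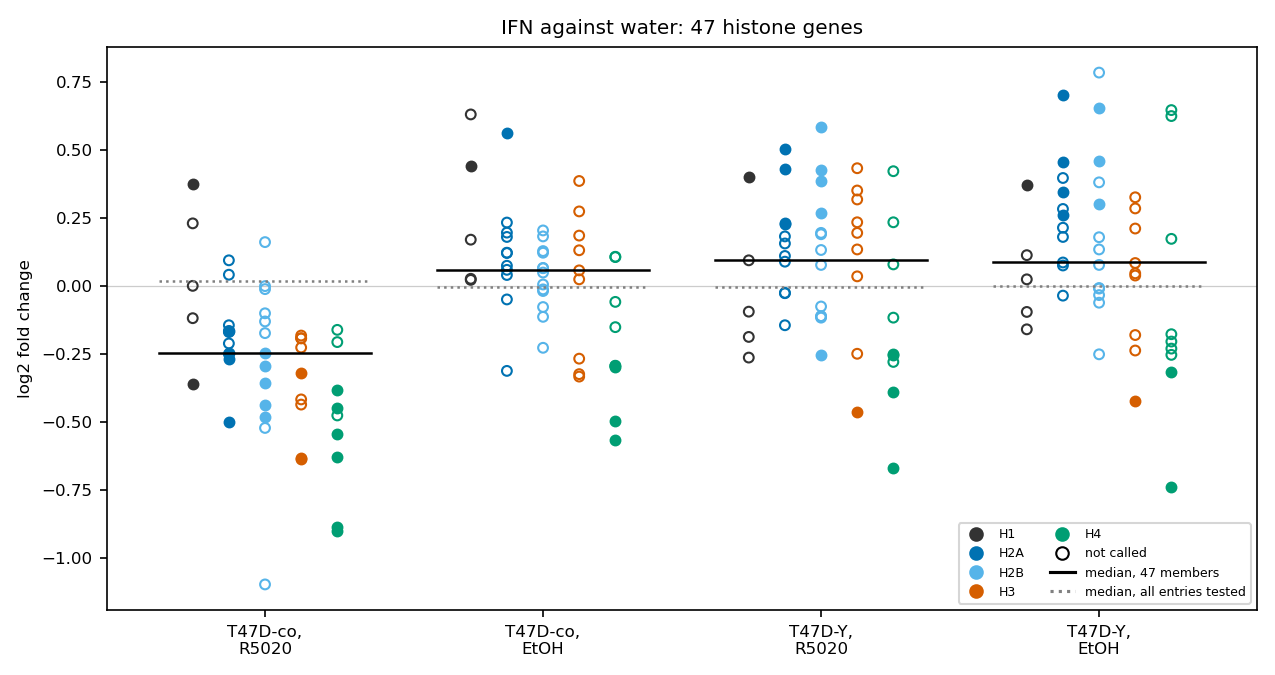
Change of the 47 histone genes with IFN against water (y axis: log2 fold change; x axis: line and ligand; colours, histone class; filled points, called; black line, median of the members; dotted line, median of all entries tested). The members' median is -0.245 in T47D-co with R5020 and 0.06 to 0.10 in the other 3 comparisons, and the called H4 genes are below 0 in all 4.

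The line by IFN interaction with EtOH called no member (limma, smallest adjusted p = 0.23), beside 0.377% of all entries; at an unadjusted p under 0.05 there were 4 members and 1558 entries. On the deposited scale, with a median of all entries of 0.29, 14 were called positive. Of the 18 G2/M genes, 8 rose in T47D-co with R5020 and 1 with EtOH, and 9 rose in T47D-Y with R5020 and 7 with EtOH, with none lower; in T47D-Y with R5020 the number was 2 without the 4 libraries of low mitochondrial share. MKI67, a proliferation marker, was called in all 4 comparisons, with rises of 0.21 (R5020) and 0.13 (EtOH) for T47D-co, and 0.28 (R5020) and 0.28 (EtOH) for T47D-Y. Of the 26 DNA replication and G1/S genes 4 rose in T47D-co with R5020, 0 with EtOH, and 2 and 4 in T47D-Y with R5020 and with EtOH, with none lower. In T47D-Y the numbers were 1 and 2 without those 4 libraries. Beside these list counts for IFN, 7.57% of all entries were called higher and 3.69% lower in T47D-co with R5020, and 0.57% and 0.432% with EtOH. In T47D-Y the shares of all entries were 3.07% and 1.69% with R5020, and 2.53% and 1.93% with EtOH.

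The summed level of the 47 members was 36699.9 to 40554 scaled fragments in T47D-co with R5020 and IFN, against 45031 to 47686 with R5020 and water. It was 41893 to 44105 with EtOH and IFN and 39851 to 45837 with EtOH and water, which overlap. The H4 genes summed to 4552 to 4769 with R5020 and IFN and 6580.3 to 7186 with R5020 and water. In T47D-Y the sum of all members was 43537 to 49062 with R5020 and IFN, 41778 to 47707 with R5020 and water, 42178 to 50415 with EtOH and IFN and 42914 to 45935 with EtOH and water. A list of 21 other RNAs taken as lacking poly(A) tails, with MALAT1 and NEAT1 among those listed, had 15 measured entries. Whether each form of these RNAs lacks a tail was not tested, so their share is no clean measure of RNA without tails. In T47D-co the 15 took 2.88 to 3.22% of fragments with R5020 and IFN, against 4.04 to 4.41% with R5020 and water. With EtOH they took 3.75 to 3.97% with IFN, against 4.3 to 4.4% with water. In T47D-Y they took 3.69 to 3.85% with R5020 and IFN, against 3.24 to 4.2% with R5020 and water, and 3.5 to 3.69% with EtOH and IFN, against 3.96 to 4.27% with EtOH and water. The lowest of these water values came from T47D-Y R5020 water replicate 2, where RN7SL1 and RN7SL2, among the most abundant of the 15, were listed at 0; the other 2 libraries of that group were at 4.2 and 4.14%. Without that library none of the 4 pairs of groups overlapped. RPPH1, the RNA of RNase P, fell with IFN by 0.92 in T47D-co with R5020, 0.45 with EtOH, and 0.46 in T47D-Y with EtOH. The part of RNA selection or recovery in the histone results was not tested, and the labels do not say whether poly(A) RNA was selected.

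**Figure D5:**
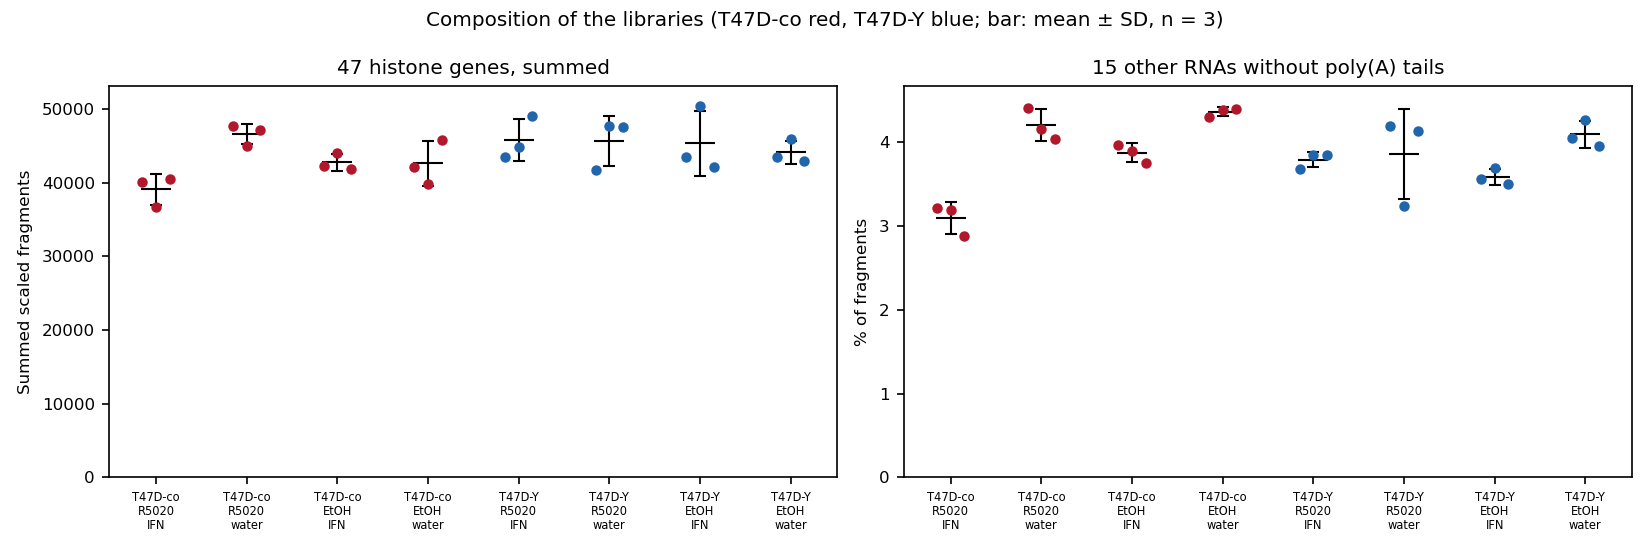
Summed scaled fragments of the 47 histone genes (left) and the share of fragments from 15 other RNAs listed as lacking poly(A) tails (right) in each library (x axis: group; points: libraries, red for T47D-co and blue for T47D-Y; bars: mean ± SD, n = 3). T47D-co with R5020 and IFN has the lowest group mean of both (T47D-Y R5020 water replicate 2 lacks RN7SL1 and RN7SL2, listed at 0), at 36699.9 to 40554 fragments and 2.88 to 3.22%.

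Of 7 genes known to give polyadenylated transcripts as well, 5 had an entry of their own. With R5020 in T47D-co and IFN, HIST1H2AC fell by 0.21 and HIST1H1C by 0.12 (the second call was lost without T47D-co R5020 IFN replicate 2 or T47D-co EtOH IFN replicate 1 or 2), and HIST2H2BE (-0.043), HIST4H4 (-0.11) and HIST1H2BK (-0.005) were not called. With water HIST1H2BK rose by 0.25 and HIST4H4 by 0.20 (lost without T47D-co R5020 water replicate 2 or T47D-co EtOH water replicate 1 or 2), and HIST2H2BE (0.080), HIST1H1C (0.052) and HIST1H2AC (0.016) were not called. None was called for R5020 in T47D-Y, with changes of -0.046 to 0.18. With IFN none was called in either line with EtOH. In R5020-treated T47D-co, IFN was followed by falls of 0.25 in HIST1H2BK, whose locus overlaps HIST1H4I, and 0.17 in HIST1H2AC, whose call was lost without any 1 library of the 2 groups. In R5020-treated T47D-Y, HIST2H2BE rose by 0.27 and HIST1H2AC by 0.23; neither was called without the 4 libraries of low mitochondrial share, both fell below 0 on the deposited scale, and the first was lost without any 1 library of the 2 groups and the second without T47D-Y R5020 IFN replicate 3 or T47D-Y R5020 water replicate 1. HIST1H2AC, whose annotated transcript runs on past the stem-loop shown above, was lower in T47D-co, with 1238 ± 28.2 scaled fragments in T47D-co and 1673 ± 55.5 in T47D-Y with EtOH and water (SD, n = 3 each; log2 fold change -0.43 ± 0.054, adjusted p = 1.32e-07). HIST2H2BE was also lower in T47D-co (-0.36 with water and -0.41 with IFN), and HIST1H1C (0.032 and 0.090) and HIST1H2BK (-0.11 and -0.10) were not called.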

How the data were processed

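Trizol whole RNA was sequenced on an Illumina MiSeq, per the labels' protocols. TopHat2 2.0.12, Cufflinks 2.2.1 and GRCh37 (hg19) are named in the submitters' processing notes, with no role or order; poly(A) selection, strand and the treatment of reads that match several histone genes are not given in the sources used here. The deposited values are a signal: as read from the values, the authors' estimated fragments over a scaling factor for each library, set separately in 4 blocks of 6 libraries (line by interferon state). Among entries with a locus to themselves, 97.8 to 98.83% of values lay within 0.05 of a whole number of a library's steps; over all entries 61.04 to 63.02% did, so no count test was used. The steps were undone and all 24 libraries rescaled by median-of-ratios over 14182 entries present in every library with a mean of at least 50 fragments; 25 of 25541 entries with a repeated symbol were left out. IFN and line comparisons run across the authors' blocks and R5020 comparisons within them.

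The 20162 entries with at least 10 scaled fragments in 3 libraries were fitted with limma 3.58.1 in R 4.3.3 (8 group means, variance trend, 16 residual degrees of freedom) on log2(scaled fragments + 1), which understates folds of low genes. Values after ± are standard errors for log2 fold changes. P-values were adjusted by Benjamini-Hochberg over all entries tested, and called under 0.05; the fit was tested on simulated data. Named members are, per comparison, up to 8 called rises and 8 called falls with a group mean of at least 50, and the genes known to give polyadenylated transcripts as well; of other lists up to 4 called genes are named. Comparisons that hold the same group share its libraries. The members and lists were chosen with earlier results of these data known. Alternatives were 3 other scalings, a pseudocount of 5, no filter, a replicate block, fits of only the groups compared and leaving out libraries; leaving out the 4 libraries of low mitochondrial share in the counts of the G1/S and G2/M lists was added after seeing the data.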

Additional observations from a re-analysis of the deposited data

Results flagged for a closer look

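Members whose R5020 response with water differed between the lines, by the line by R5020 interaction (response in T47D-co minus response in T47D-Y, log2 scale, limma), were 4 of 47. HIST1H1D had an interaction of -0.63 (adjusted p = 6.18e-06), with a response of -0.61 in T47D-co and 0.021 in T47D-Y. HIST1H2BO had 0.38 (adjusted p = 0.00462), with 0.42 in T47D-co and 0.037 in T47D-Y. HIST1H1E had 0.32 (adjusted p = 0.0248), with 0.36 in T47D-co and 0.036 in T47D-Y. HIST2H2AC had 0.23 (adjusted p = 0.0439), with 0.31 in T47D-co and 0.078 in T47D-Y. Of these, HIST1H1D kept its call in all fits, and the calls of HIST1H1E and HIST2H2AC were each lost without some single library.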

How the results depend on the processing

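Of 100 calls of members (those eligible to be named), all kept their direction by total-fragment and upper-quartile scaling, without the filter, with a pseudocount of 5, with a replicate block, in fits of only the groups compared and with libraries left out; calls lost numbered 11 by total-fragment scaling, 5 by upper-quartile scaling, 0 with the pseudocount of 5, 16 without the filter, 5 with the block, 9 in fits of only the groups compared, 23 without the 4 libraries of low mitochondrial share, and 115 of 624 fits that left out 1 library. On the deposited scale 8 were lost and 15 reversed, where the medians of all entries were -0.47 and -0.48 for IFN in T47D-Y with EtOH and with R5020 and -0.27 between the lines with water. The reversed values with EtOH were -0.014 for HIST1H2BM, -0.020 for HIST1H2AL, -0.10 for HIST1H1D, -0.13 for HIST2H2AC, -0.17 for HIST1H2BO and -0.22 for HIST1H2AI. With R5020 they were -0.051 for HIST1H2AL, -0.056 for HIST3H2BB, -0.083 for HIST1H1D, -0.097 for HIST1H2BO, -0.21 for HIST2H2BE, -0.26 for HIST1H2AC and -0.25 for HIST2H2AC, and between the lines with water -0.037 for HIST1H4E and -0.070 for HIST1H2AE. Members called on the deposited scale numbered 17 and 37 for IFN in T47D-co with EtOH and with R5020 (2 higher and 15 lower, and 1 and 36), 29 and 31 in T47D-Y (all lower), and 14 for the line by IFN interaction; between the lines with water 3 were higher and 30 lower. By total-fragment scaling, with medians of all entries of -0.139 and -0.155 for R5020 in T47D-co with water and with IFN, 8 were called for R5020 in T47D-co with water, 29 with IFN and 2 for the line by R5020 interaction. Without the filter the counts were 3 for IFN in T47D-co with EtOH, 9 in T47D-Y with R5020 and 2 for the line by R5020 interaction. Without the 4 libraries of low mitochondrial share they were 8 for R5020 in T47D-co with water, 2 for IFN in T47D-Y with R5020 and 2 for the line by R5020 interaction, and in fits of only the groups compared 7 for that interaction; the cause was not tested. Leaving out 1 library gave 8 to 18 for R5020 in T47D-co with water, 12 to 20 with IFN, 2 to 5 for IFN in T47D-co with EtOH, 15 to 19 with R5020, 7 to 12 and 8 to 11 in T47D-Y with EtOH and with R5020, 17 to 21 and 18 to 24 between the lines with water and with IFN, 0 to 2 for the R5020 by IFN interaction in T47D-co, 2 to 8 for the line by R5020 interaction, and 0 for the rest. Same-numbered libraries of different groups did not deviate together over the entries tested (84 pairs, correlation -0.0838 to 0.0682). The main fit did not pair them. Libraries handled together without a common deviation would look the same, so pairing is not excluded. With a replicate block the counts were 13 and 18 for R5020 in T47D-co with water and with IFN, 4 and 18 for IFN in T47D-co with EtOH and with R5020, 11 and 12 in T47D-Y, 21 and 24 between the lines with water and with IFN, and 6 for the line by R5020 interaction.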
